A study of Homo sapiens with 4 samples.

Results

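Androgen-regulated genes are the transcriptional readout of androgen signalling in prostate cells. The set described here held 43 genes known to be induced or repressed by androgen in LNCaP-type cells, picked by gene symbol among the 27275 rows of the count table. A member was kept if it had at least 10 counts in 2 or more libraries. All 43 met this rule, and all 43 were among the 15840 genes that passed the expression filter and were tested. Of these, 38 are known as induced by androgen, 2 (FOLH1 and OPRK1) as repressed, and 3 (STEAP1, ACPP and LIFR) have been described in both directions and were kept apart.

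The study asked what RRM2, the small subunit of ribonucleotide reductase, does in prostate cancer cells. C4-2 cells, an established human prostate cancer line derived from LNCaP, were transfected with a scrambled siRNA (2 libraries) or with a pool of siRNAs against RRM2 (SMARTpool, delivered with RNAiMAX; 2 libraries), and total RNA was sequenced. Both groups were of this single line and were transfected, and no androgen or androgen blocker was added by design as far as the sources state. The medium held fetal bovine serum, whose androgen content is not stated in the sources used here, and neither are the siRNA sequences. Knockdown was checked a few days after transfection, but the harvest time of the sequenced RNA is not stated. They do not say whether replicate libraries came from separate cultures, and the p-values therefore reflect library-to-library spread that may be purely technical.

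The libraries held 27844121 to 29941671 counts. RRM2 itself, on chromosome 2, had 46.3 and 43.0 CPM (counts scaled to a common library size by TMM) with scrambled siRNA and 4.08 and 4.34 CPM with RRM2 siRNA, and thus a log2 fold change of -3.41 (SE 0.08; edgeR, adjusted p = 2.60e-13). The share of counts from ribosomal RNA of the 45S genes was 2.14% with scrambled siRNA, and 2.45% and 6.13% in replicates 1 and 2 of RRM2 siRNA. Leaving out the ribosomal RNA genes changed no member's call. The luminal markers KRT8 (624 to 669 CPM), KRT18 (347 to 382 CPM) and HOXB13 (317 to 378 CPM) were well expressed in every library. The 3 basal markers summed to at most 1.11 CPM and the 3 leukocyte and endothelial markers to at most 0.71 CPM, with KRT5, TP63, PTPRC and CD3E at or near 0. The 3 fibroblast markers summed to between 33.5 and 39.6 CPM, nearly all of it COL1A1, which was slightly higher with RRM2 siRNA (log2 fold change 0.18). The 3 neuroendocrine markers, of which CHGA was near 0, summed to 97.2 and 106 CPM with scrambled siRNA and 142 and 115 CPM with RRM2 siRNA, with SYP (log2 fold change 0.72; edgeR, adjusted p = 8.65e-04) and ENO2 (0.31, adjusted p = 0.00266) called higher. The part of these markers in the results was not tested. In bulk RNA, fewer cells that express a gene and less RNA per cell cannot be told apart.

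Androgen acts on transcription through androgen response elements in DNA, which are paired and often imperfect copies of the hexamer AGAACA. Many of the genes induced by androgen in prostate epithelium encode secreted proteins, among them the kallikrein proteases of seminal fluid, and others serve ion transport, lipid and polyamine metabolism or feedback on signalling. The KLK3 product, prostate-specific antigen, is the serum marker of the disease.

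KLK3 and its neighbour KLK2 lie next to each other on chromosome 19 and had the most different responses among the kallikreins with over 1 CPM in every library, so the matched stretches upstream of their starts are shown. Both are on the plus strand in RefSeq for GRCh38.p14, at chr19:50854737-50854786 for KLK3 and chr19:50873255-50873304 for KLK2. The capitals mark the hexamer at the place of the known proximal androgen response element of KLK3, which begins at position -170 from its start, and the matching hexamer of KLK2, at -176. Positions count from the start of the RefSeq promoter entry. For KLK2 this is not the gene start given below with its counts, so the offset between -170 and -176 depends on the start used.
KLK3: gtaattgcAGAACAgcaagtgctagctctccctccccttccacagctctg
KLK2: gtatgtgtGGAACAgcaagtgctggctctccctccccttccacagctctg
The 2 stretches were identical at 45 of 50 bases. Counted from 1 at the 5′ end and with the KLK3 base first, the differences were A4T, T5G, C8T, A9G and A24G, of which A9G falls in the capitals. A run of 80 identical bases, which starts within these stretches and goes on beyond them, was the longest that the promoters shared. Whether any of these base differences has a part in the different responses was not tested.

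With RRM2 siRNA, the induced members moved in both directions. Of the 38, 24 were higher, 9 were lower and 5 (SPDEF, TMPRSS2, CAMKK2, EAF2 and SGK1) did not pass (edgeR, adjusted p under 0.05), against 25.4% of all tested genes higher and 25.0% lower. Their median log2 fold change was 0.26, beside -0.00 over all tested genes. In both RRM2 siRNA libraries 27 of the 38 were above their scrambled siRNA mean, with medians of 0.24 and 0.30 on the log2 scale. The groups did not overlap for any of the 38, as for 75.0% of all tested genes. With the study's added threshold of a fold change over 1.5, 8 induced members were higher (STEAP4, HPGD, ORM1, GNMT, TIPARP, ERRFI1, MAF and AZGP1), against 5.9% of tested genes, and 1 was lower (KLK2), against 5.25%. Without RRM2 siRNA replicate 1, TIPARP fell under this fold threshold (log2 fold change 0.56).

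**Figure D1:**
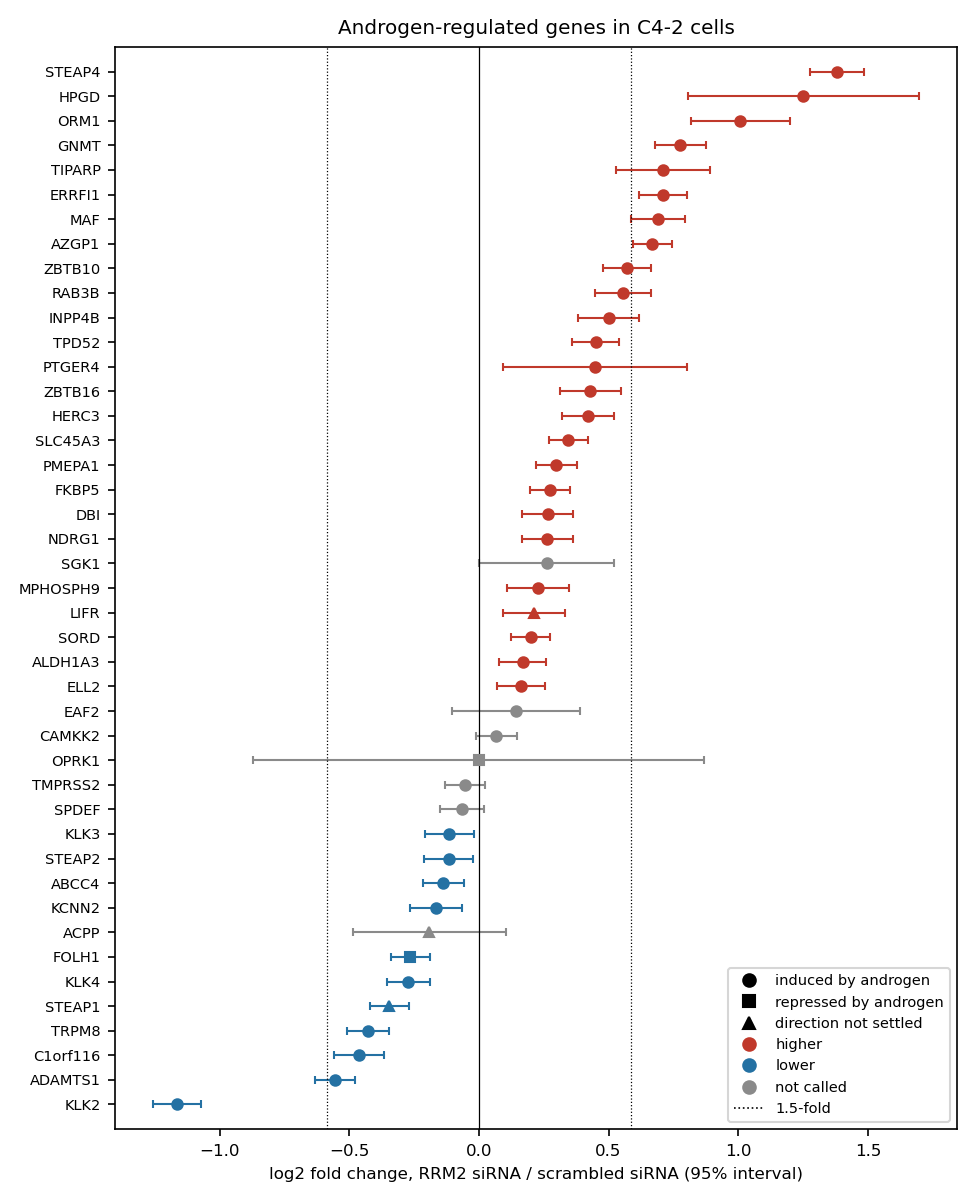
Log2 fold change of each of the 43 genes, RRM2 siRNA over scrambled siRNA, with its 95% interval, ordered by value. Marker shape gives the known direction under androgen, colour the call (edgeR, adjusted p under 0.05), and dotted lines a fold change of 1.5. KLK2 at -1.16 stands apart at the low end and STEAP4 at 1.38 is highest.

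The androgen-induced proteases were the role group in which none rose. Of 5, 4 were lower, against 25.0% of all tested genes, and TMPRSS2 did not pass, with a median log2 fold change of -0.27. The role groups hold 3 to 8 genes each, and some include members repressed by androgen or of unsettled direction. KLK2 (chr19:50873433-50880567), a trypsin-like protease that can activate the precursor of prostate-specific antigen, had 851 and 874 CPM with scrambled siRNA and 403 and 368 CPM with RRM2 siRNA. The mean after the knockdown was 0.447 times the scrambled siRNA mean, and the groups lay far apart. The log2 fold change was -1.16 (SE 0.04; edgeR, adjusted p = 5.10e-11), which ranked 169 from the lowest among the 15840 tested genes, and it lay between -1.23 and -1.10 under every alternative run.

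KLK3 (chr19:50854915-50860764) had 5851 and 6227 CPM with scrambled siRNA and 5643 and 5516 CPM with RRM2 siRNA. The values did not overlap, but the gap between groups was smaller than the gap between the scrambled siRNA libraries. Its log2 fold change was -0.11 (SE 0.04, 95% interval -0.21 to -0.02; edgeR, adjusted p = 0.0412), and the call was lost without RRM2 siRNA replicate 1 (adjusted p = 0.133) or replicate 2 (adjusted p = 0.346). Without scrambled siRNA replicate 2, the library at 6227 CPM, the fold change was -0.07 and was still called. KLK3 was the most abundant of the 43 per length, at 2637 CPM per kilobase of exon with scrambled siRNA, and made up 0.587% and 0.619% of all counts there, against 0.577% and 0.541% after the knockdown. For every 100 KLK3 counts, the scrambled siRNA libraries had 14.5 and 14.0 KLK2 counts, and the RRM2 siRNA libraries 7.13 and 6.66. Of the 50-base windows of the longest coding transcript of KLK2, 0.37% also occurred without mismatch in another gene, KLK3. Of those of KLK3, 0.681% occurred in KLK2. The aligner is not stated, so how reads with mismatches were divided between the 2 genes is not known.

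KLK4, a further prostatic kallikrein, had 192 and 187 CPM with scrambled siRNA and 158 and 157 CPM with RRM2 siRNA (log2 fold change -0.27, SE 0.04; adjusted p = 3.37e-05). ADAMTS1, a secreted metalloprotease that cleaves proteoglycans, had 948 and 974 CPM against 643 and 664 CPM (-0.56, SE 0.04; adjusted p = 1.43e-08). In both genes the groups were separated by far more than the libraries within a group. TMPRSS2 (chr21:41464551-41508158), a membrane serine protease and the common fusion partner of ERG, had 1405 and 1460 CPM with scrambled siRNA and 1384 and 1377 CPM with RRM2 siRNA. Its log2 fold change of -0.05 (95% interval -0.13 to 0.02; adjusted p = 0.240) did not pass, although it did without scrambled siRNA replicate 1 (-0.09, adjusted p = 0.0132).

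**Figure D2:**
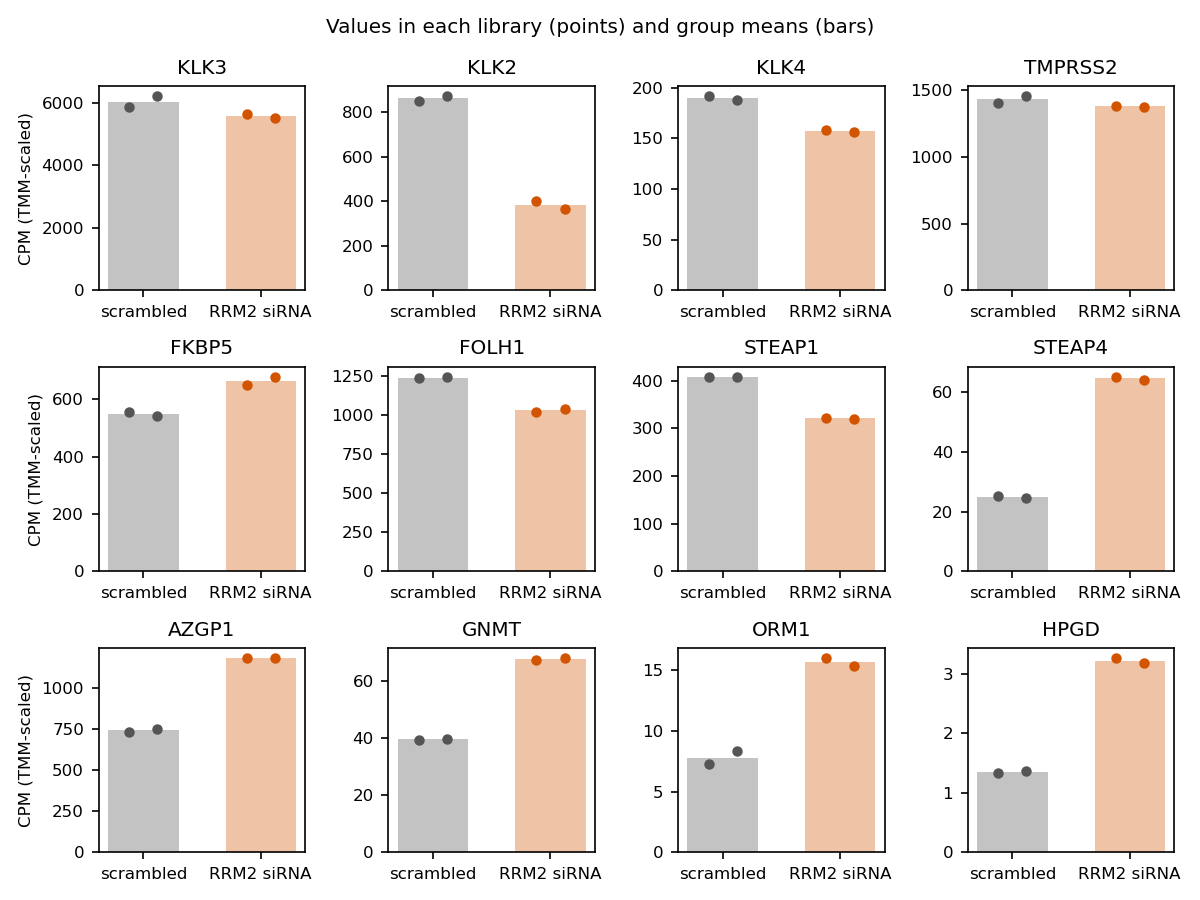
CPM in each library (points) and group means (bars) for 12 of the genes, with scrambled siRNA in grey and RRM2 siRNA in orange; each panel has its own axis from 0. KLK2 fell to 403 and 368 CPM, KLK3 and TMPRSS2 differed little between groups, and STEAP4, AZGP1, GNMT, ORM1 and HPGD were higher in both RRM2 siRNA libraries.

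The table held 16 kallikrein genes, a pseudogene included, of which 8 were tested and 6 had over 1 CPM in every library. This set was chosen after values were seen. In order along chromosome 19, the log2 fold changes were -0.57 for KLK1, -0.60 for KLK15, -0.11 for KLK3, -1.16 for KLK2, -0.25 for the pseudogene KLKP1 and -0.27 for KLK4. Each of these 6 was called lower, against 25.0% of all tested genes. Tested kallikreins not over 1 CPM in every library are not described. KLK1, KLK15 and KLKP1 were far less abundant than KLK2, KLK3 and KLK4, with 12.8 to 17.2 CPM with scrambled siRNA. The 95% interval of KLK2 (-1.26 to -1.07) did not meet that of any of the other 5, and that of KLK3 lay closest to 0.

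**Figure D3:**
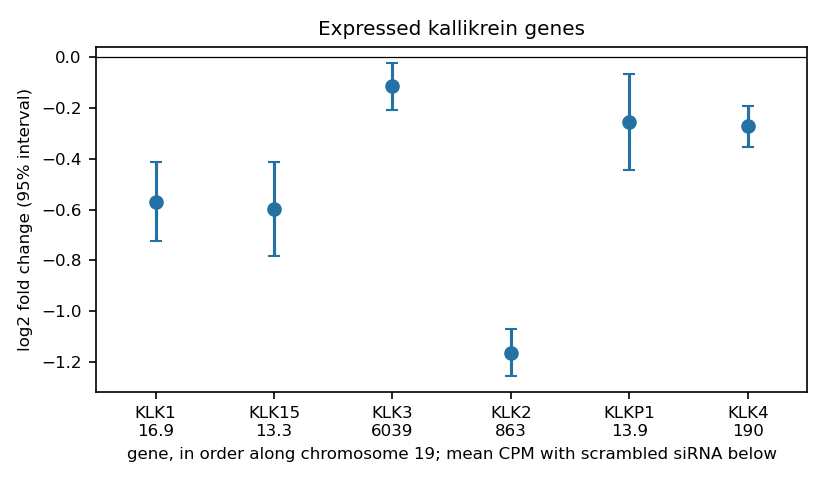
Log2 fold change with its 95% interval for the 6 kallikrein genes with over 1 CPM in every library, in their order along chromosome 19, with the mean CPM with scrambled siRNA under each name. All 6 lie below 0, and KLK2 lies between KLK3 and KLKP1 with the lowest value, -1.16.

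Among 7 transporters, channels and membrane reductases, 2 were higher and 5 lower, against 25.4% and 25.0% of all tested genes. Members of the STEAP family, which includes metalloreductases of iron and copper, were split. STEAP3, which is not a member of the set, was lower (log2 fold change -0.43; edgeR, adjusted p = 3.99e-06). STEAP4 (chr7:88276429-88306913) had 25.2 and 24.4 CPM with scrambled siRNA and 65.2 and 64.1 CPM with RRM2 siRNA, and thus a log2 fold change of 1.38 (SE 0.05; edgeR, adjusted p = 3.80e-11), the highest of the 43. The mean after the knockdown was 2.60 times the scrambled siRNA mean. STEAP2 had 919 and 832 CPM against 793 and 822 CPM, with a log2 fold change of -0.12 (adjusted p = 0.0410). This was -0.05 when scrambled siRNA replicate 1, the library at 919 CPM, was left out (adjusted p = 0.251) and -0.19 when scrambled siRNA replicate 2 was (adjusted p = 1.02e-05). The call was also lost, at -0.09 and -0.14, when replicate 1 (adjusted p = 0.228) or replicate 2 (adjusted p = 0.0556) of RRM2 siRNA was left out. STEAP1, of the group with unsettled direction, lies beside STEAP2 on chromosome 7 and had 408 CPM in both scrambled siRNA libraries and 322 and 320 CPM with RRM2 siRNA (-0.34, SE 0.03; adjusted p = 1.06e-06). Some STEAP1 reads could belong to STEAP1B, since 22.1% of its 50-base windows occur there. STEAP1B had at most 1.61 CPM, a value that itself depends on how the shared reads were assigned.

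TRPM8, the cold- and menthol-gated cation channel, had 221 and 224 CPM with scrambled siRNA and 165 and 166 CPM with RRM2 siRNA (log2 fold change -0.43, SE 0.04; adjusted p = 2.90e-07). SLC45A3, which encodes the prostate protein prostein, went the other way, from 439 and 429 CPM to 549 and 553 CPM (0.34, SE 0.04; adjusted p = 1.31e-06). Smaller falls were seen for ABCC4, an exporter of cyclic nucleotides and prostaglandins (-0.14; adjusted p = 0.00671, and 0.0892 without RRM2 siRNA replicate 1), and for KCNN2, a calcium-activated potassium channel (-0.17; adjusted p = 0.00870, and 0.0654 without RRM2 siRNA replicate 2 and 0.0632 with DESeq2).

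None of the 8 transcription and chaperone factors was lower, 6 were higher, and SPDEF and EAF2 did not pass. Of all tested genes, 25.0% were lower and 25.4% higher. FKBP5 (chr6:35573585-35728583), an HSP90 co-chaperone that is widely used as a readout of androgen signalling, had 555 and 543 CPM with scrambled siRNA and 649 and 678 CPM with RRM2 siRNA, and thus a log2 fold change of 0.27 (SE 0.04; edgeR, adjusted p = 2.04e-05). The lowest RRM2 siRNA library thus lay above the highest scrambled siRNA library, opposite in direction to KLK2, KLK3 and KLK4. MAF, a basic leucine zipper factor, had 36.3 and 36.1 CPM against 59.9 and 56.9 CPM (0.69, SE 0.05; adjusted p = 3.29e-08). TIPARP, a mono-ADP-ribosyltransferase, had 15.3 and 14.7 CPM against 27.0 and 22.1 CPM (0.71, SE 0.08; adjusted p = 6.16e-06), with its RRM2 siRNA libraries further apart than those of MAF. The zinc finger genes ZBTB10 (0.57, adjusted p = 6.09e-08) and ZBTB16 (0.43, adjusted p = 1.34e-05) rose as well, ZBTB10 to just under the fold threshold, which it passed without RRM2 siRNA replicate 2 (0.59).

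ELL2, a subunit of elongation complexes, rose by a log2 fold change of 0.16 (adjusted p = 0.00593), a call that was lost without scrambled siRNA replicate 2 (adjusted p = 0.0532). Its partner EAF2 had 6.68 to 8.04 CPM over the 4 libraries and did not pass (0.14, adjusted p = 0.326). SPDEF, an ETS factor of luminal epithelium, had 172 and 177 CPM against 169 and 164 CPM (-0.07, 95% interval -0.15 to 0.02; adjusted p = 0.176).

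All 5 genes of metabolic enzymes and lipid binding were higher, against 25.4% of all tested genes. HPGD, which inactivates prostaglandins, was near the floor of the set with 1.33 and 1.37 CPM with scrambled siRNA and 3.27 and 3.17 CPM with RRM2 siRNA (log2 fold change 1.25, SE 0.21; edgeR, adjusted p = 1.46e-04), so its interval was wide (0.81 to 1.70). GNMT (chr6:42960754-42963880), a methyltransferase that uses up S-adenosylmethionine, had 39.4 and 39.9 CPM against 67.5 and 68.3 CPM (0.78, SE 0.05; adjusted p = 5.62e-09). The libraries within each group were nearly equal for GNMT. It overlaps PEX6 on the other strand, which was also higher (0.36), and no source used here says whether counting took account of strand. SORD, a sorbitol dehydrogenase (1577 and 1594 CPM against 1816 and 1826 CPM; 0.20, adjusted p = 2.82e-04), DBI, an acyl-CoA-binding protein (0.26, adjusted p = 2.20e-04), and ALDH1A3, a retinaldehyde dehydrogenase (0.17, adjusted p = 0.00407), rose less. ALDH1A3 was lost without RRM2 siRNA replicate 2 (adjusted p = 0.0586). SORD and ALDH1A3 share 33.1% and 36.1% of their 50-base windows with another transcribed locus (SORD2P and AC015712.2), so their counts could be split with it.

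Of 3 other secreted proteins, AZGP1 and ORM1 were higher, against 25.4% of all tested genes, and ACPP did not pass. AZGP1 (chr7:99966727-99976112), a zinc-binding glycoprotein of seminal fluid, had 733 and 751 CPM with scrambled siRNA and 1181 and 1179 CPM with RRM2 siRNA (log2 fold change 0.67, SE 0.04; adjusted p = 1.57e-09). It was the most abundant member past the fold threshold on the higher side, at 341 CPM per kilobase with scrambled siRNA and 542 with RRM2 siRNA. ORM1, an acute-phase plasma protein, had 7.28 and 8.35 CPM against 16.0 and 15.3 CPM (1.01, SE 0.09; adjusted p = 2.98e-07). Its near copy ORM2, with which it shares 47.4% of 50-base windows, had 2.94 and 3.14 CPM against 5.69 and 5.82 CPM (0.92), so how the reads divide between them is uncertain. ACPP, prostatic acid phosphatase and of unsettled direction, had 6.79 and 6.36 CPM against 5.16 and 6.38 CPM, and the groups overlapped (-0.19, 95% interval -0.49 to 0.10; adjusted p = 0.270).

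Among 6 kinases and signalling regulators, 4 were higher and none was lower, against 25.4% and 25.0% of all tested genes. ERRFI1, a feedback inhibitor of the EGF receptor, had 115 and 113 CPM with scrambled siRNA and 180 and 193 CPM with RRM2 siRNA (log2 fold change 0.71, SE 0.04; adjusted p = 7.70e-09). INPP4B, a lipid phosphatase that opposes PI3-kinase signalling, had 23.3 and 22.1 CPM against 32.1 CPM in both RRM2 siRNA libraries (0.50, SE 0.06; adjusted p = 2.96e-06). PMEPA1, which restrains TGF-beta signalling, rose by 0.30 (adjusted p = 7.92e-06). NDRG1, a stress-responsive gene, had 962 and 1012 CPM against 1244 and 1125 CPM and rose by 0.26 (adjusted p = 2.10e-04). The gap between its groups was smaller than the gap between the RRM2 siRNA libraries. Its log2 fold change lay between 0.19 and 0.33 under every alternative run. PMEPA1 overlaps NKILA on the other strand, which was lower (-0.33). CAMKK2, the calcium-dependent kinase upstream of AMPK, had 299 and 292 CPM against 304 and 316 CPM and did not pass (0.07, 95% interval -0.01 to 0.15; adjusted p = 0.142). The kinase gene SGK1, at 6.51 to 8.99 CPM, did not pass either (0.26, adjusted p = 0.0889), although it did without RRM2 siRNA replicate 1 (0.38, adjusted p = 0.0226).

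In the group of vesicle traffic and other genes, 4 were higher and C1orf116 was lower, against 25.4% and 25.0% of all tested genes. RAB3B, a GTPase of secretory vesicles, had 407 and 360 CPM with scrambled siRNA and 546 and 582 CPM with RRM2 siRNA (log2 fold change 0.56, SE 0.05; adjusted p = 3.67e-07). It passed the fold threshold without scrambled siRNA replicate 1 (0.64) and without RRM2 siRNA replicate 1 (0.60). TPD52, a vesicle-trafficking protein (0.45, adjusted p = 6.04e-07), HERC3, a ubiquitin ligase (0.42, adjusted p = 3.08e-06), and MPHOSPH9, a centriole protein (0.23, adjusted p = 0.00351, and 0.15 without scrambled siRNA replicate 2), also rose. TPD52 shares 18.2% of its 50-base windows with the locus AC036214.3. C1orf116, known as the specifically androgen-regulated gene, had 171 and 158 CPM against 117 and 122 CPM (-0.46, SE 0.05; adjusted p = 9.04e-07).

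The surface enzyme and receptors included both repressed members. FOLH1 (chr11:49146635-49208670), which encodes prostate-specific membrane antigen, had 1232 and 1243 CPM with scrambled siRNA and 1021 and 1039 CPM with RRM2 siRNA (log2 fold change -0.27, SE 0.04; edgeR, adjusted p = 1.71e-05). It shares 41.2% of its 50-base windows with FOLH1B, which had 3.32 to 4.23 CPM and did not pass. OPRK1, the kappa opioid receptor, was barely measured at 0.315 to 0.434 CPM, with overlapping groups, and its interval of -0.87 to 0.87 leaves its change undetermined at this depth. LIFR, a cytokine receptor of unsettled direction, had 109 and 94.8 CPM against 120 and 116.1 CPM (0.21, SE 0.06; adjusted p = 0.00508), which went to 0.12 and was lost without scrambled siRNA replicate 2 (adjusted p = 0.0712). PTGER4, a prostaglandin E receptor, had 4.30 and 3.43 CPM against 5.03 and 5.54 CPM. Its call (0.45, SE 0.17; adjusted p = 0.0362) was lost with DESeq2 (adjusted p = 0.128) and when replicate 2 of scrambled siRNA (log2 fold change 0.29, adjusted p = 0.234) or of RRM2 siRNA (0.38, adjusted p = 0.0965) was left out.

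**Figure D4:**
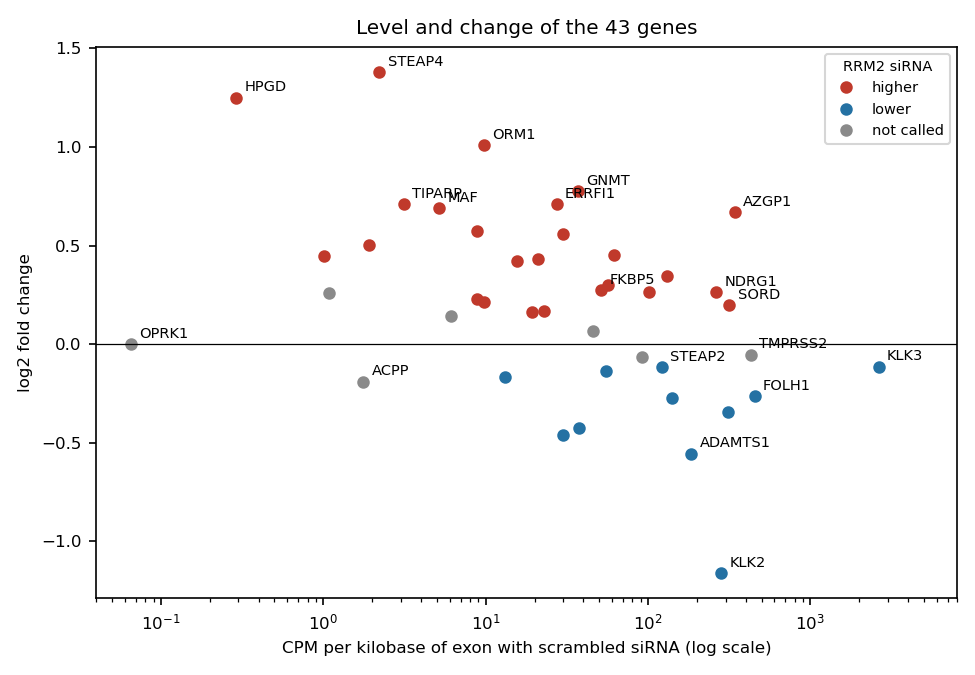
Log2 fold change of the 43 genes against their level with scrambled siRNA in CPM per kilobase of exon (log scale), coloured by call (edgeR, adjusted p under 0.05). Levels run from 0.065 for OPRK1 to 2637 for KLK3, and the 3 largest rises (STEAP4, HPGD and ORM1) belong to genes under 10 CPM per kilobase.

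Per kilobase of exon, the 5 most abundant members with scrambled siRNA after KLK3 were FOLH1 (453 CPM per kilobase), TMPRSS2 (431), AZGP1 (341), SORD (316) and STEAP1 (311). Of these, AZGP1 and SORD were higher, FOLH1 and STEAP1 lower, and TMPRSS2 did not pass. KLK2 was next, at 282 CPM per kilobase with scrambled siRNA and 126 with RRM2 siRNA. The 43 genes together accounted for 1.95% and 1.97% of the scrambled siRNA counts, against 2.01% and 1.92% after the knockdown, ranges that overlap. These shares are of all counts, ribosomal RNA included, which was highest in RRM2 siRNA replicate 2. On the TMM scale, the summed level of the 38 induced members was 17687 and 18045 CPM with scrambled siRNA, against 18226 and 18090 CPM, and without KLK3 it was 11836 and 11817 CPM, against 12583 and 12573 CPM. Neither sum overlapped between the groups. With KLK3 included, however, the gap between groups was smaller than the gap between the scrambled siRNA libraries. Without KLK3, it was larger than the gap between the libraries of either group.

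Promoters from 250 bases before to 50 after the start were in the RefSeq table for 32 of the 43 genes (59 promoters). The hexamer AGAACA, or TGTTCT on the other strand, occurred in 11.9% of these promoters, in 6 genes, against 14.8% of all 35116 promoters of the same length. Those 6 were KLK3 and TRPM8, which were lower, FKBP5, LIFR and PMEPA1, which were higher, and SGK1, which did not pass. The paired form, GNACA, any 3 bases and then TGTNC, can overlap the hexamer but cannot contain all of it. This form occurred in 1 member promoter, that of GNMT, or 1.69%, against 0.39% of all promoters. These matches are descriptions of letters in a short window. No entry was given for ZBTB16, ZBTB10, OPRK1, ELL2, ACPP, ADAMTS1, SORD, TMPRSS2, NDRG1, FOLH1 and TPD52.

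The 7-base word AAGTCCA, taken up because earlier results of these data had drawn attention to it, occurs in 4 coding transcripts of RRM2. Among the members it was in at least 1 coding transcript of 14 genes, of which 9 were higher, 4 lower and 1 not called, with a median log2 fold change of 0.24. In the 29 without it, 16 were higher, 7 lower and 6 not called, with a median of 0.23. Of all tested genes, 25.4% were higher and 25.0% lower, and the word was counted only in the members and RRM2. KLK2 carried it after the coding part in 3 of 6 transcripts and FKBP5 in 4 of 4, while KLK3, KLK4, ADAMTS1 and TRPM8 did not carry it. Its part in any change was not tested.

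Other genes of the pathway were taken from lists written from general knowledge. The pioneer factor FOXA1 (log2 fold change -0.31; edgeR, adjusted p = 5.09e-06) and the homeobox factor HOXB13 (-0.23, adjusted p = 5.30e-05) were lower. The co-chaperone FKBP4, with 417 and 425 CPM against 228 and 245 CPM (-0.83, adjusted p = 6.88e-10), the chaperone HSP90AB1 (-0.50, adjusted p = 5.80e-08) and the factor GATA2 (-0.47, adjusted p = 1.17e-07) were lower too. FKBP4 and the member FKBP5, which both bind HSP90, thus moved in opposite directions.

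Of 70 other genes of the androgen response, 39 (55.7%) were higher, 12 (17.1%) lower and 19 not called, against 25.4% and 25.0% of all tested genes higher and lower, with a median log2 fold change of 0.19. The largest were ADAM7, a metalloprotease-like protein (1.45), SELENOP, a selenium carrier (0.98), NNMT, a methyltransferase (-0.89), and SAT1, which catabolizes polyamines (0.88). Among 3 other androgen-repressed genes, UGT2B15, which glucuronidates androgens, was lower (-0.89, adjusted p = 9.47e-06), and UGT2B17 (-0.45, adjusted p = 0.0520) and MET (-0.05, adjusted p = 0.827) did not pass.

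**Figure D5:**
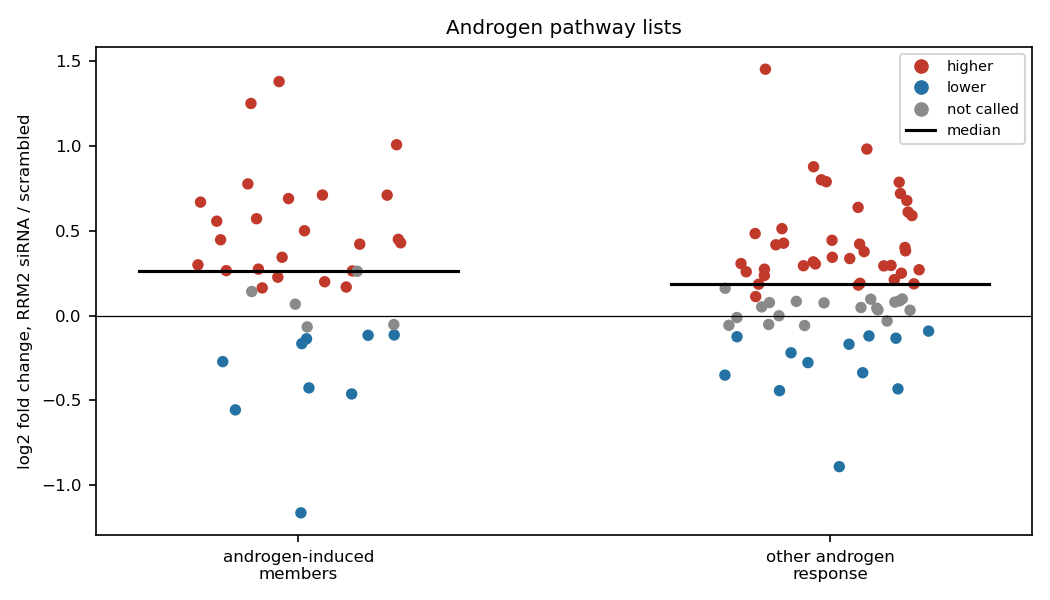
Log2 fold change of each gene (points, coloured by call) and the median (black line) for the 38 induced members and 70 other androgen response genes; the sideways spread of points has no meaning. Medians were 0.26 and 0.19, and each list held genes called in both directions.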

How the data were processed

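RNA of C4-2 cells with scrambled siRNA (2 libraries) or RRM2 siRNA (2 libraries) was compared. The deposited values are the authors' estimated counts from Partek Flow, 1 row per gene and without normalization. The aligner, the annotation and the use of strand were not given in the sources used here. Between 71.0% and 71.7% of values per library were whole numbers. Estimated counts were rounded, which changes a low count by less than 1 read. Rows of 27 gene symbols that had turned into dates, with 0.161% to 0.172% of the counts, were kept unnamed. The libraries held 28508906 and 27844121 (scrambled siRNA) and 29941671 and 28941206 (RRM2 siRNA) counts. The coefficient of variation within groups beyond counting noise, from the common dispersion of edgeR over all tested genes, was 3.87%. Library pairs differed by more than sampling noise (chi-square per degree of freedom 3.04 and 2.57 without ribosomal RNA).

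After filterByExpr and TMM scaling, the quasi-likelihood test of edgeR 4.0.16 (R 4.3.3) was run on all 4 libraries, with Benjamini-Hochberg adjustment over 15840 genes. A call is an adjusted p under 0.05. The study's fold threshold of 1.5 was applied as a second rule. SE and 95% intervals came from the same fit, which was tested on simulated counts, with a pass mark changed after the first result had been seen. CPM uses TMM-scaled library sizes. Exon lengths and transcripts were from GENCODE 29 and promoters from RefSeq (GRCh38.p14). The coordinates in the table are those of GRCh38.

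The members and lists were chosen with earlier results of these data known, and the lists were written from general knowledge. Full values are given for members past the fold threshold, KLK2, KLK3, TMPRSS2, FKBP5, and the repressed and unsettled members. From the other lists, FOXA1, HOXB13 and up to 4 called genes with the largest changes are named. Results of some genes and of the list that held them are not reported here. Other members were described after their values were seen. Alternatives were DESeq2 1.42.0, limma voom 3.58.1, RLE size factors, other count filters, no ribosomal RNA genes, a replicate block and each library left out.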

Additional observations from a re-analysis of the deposited data

How the results depend on the processing

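Under 11 alternatives, 33 of the 43 members kept their call wherever a value was given (DESeq2 gave none for OPRK1). No member but OPRK1, which was not called and lay between -0.22 and 0.24, changed sign. The other 10 lost or gained a call under at least 1 alternative, as given beside each. With each library left out in turn, 22 to 25 induced members were higher, 6 to 9 lower, and 8 to 10 higher and 1 lower with the fold threshold. A lone library left in a group was assumed to vary like the other group. The number of all genes higher at the study's thresholds moved from 935 to 597 with DESeq2, and the number lower from 831 to 578. At adjusted p alone, the numbers of all genes moved from 4029 to 2751 higher and from 3954 to 2761 lower. The shares of all tested genes set beside the members thus depend on the method. Induced members moved from 24 to 23 higher and from 9 to 8 lower. The cause of these shifts was not tested. Same-numbered libraries did not deviate together (correlation of deviations -0.03 over 10414 genes). The sources do not say whether they were made as pairs. With the replicate block, 25 induced members were higher and 8 lower, KLK3 was not called (adjusted p = 0.152) and SGK1 was (adjusted p = 0.0469). With 2 libraries a group, changes of genes at a few CPM (OPRK1, HPGD, PTGER4, SGK1, EAF2 and ACPP) have wide intervals.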
